A study of Mus musculus with 48 samples.

Results

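The subject here is the translation efficiency (TE) of individual mRNAs in the liver of WT mice, that is, how many ribosome footprints an mRNA carried per unit of its cytoplasmic RNA. An mRNA was included when its RNA reached a CPM (counts scaled to library size) of 10 or more in each of the 6 WT mice, which kept 6329 of the 20622 genes in the RNA tables. Of these, 6286 had an RPF transcript with enough coding sequence to be tested. The choice used RNA levels alone and no footprint count.

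Livers of WT, Bcat, Myc and BM mice were profiled 4 or 10 days after an intravenous injection of AAV8.TBG.Cre, and 12 of the 48 libraries came from the WT mice. Each mouse gave an RPF library (ribosome-protected fragments) and a library of the cytoplasmic RNA taken from the same lysate before nuclease digestion. The WT groups were 3 male mice at day 4 and 3 male mice at day 10, each an individual animal between 2 and 4 months old, with wild-type genotype. All 6 had received the Cre virus, whose TBG promoter restricts Cre to hepatocytes, so none was an uninjected animal. Mice of both days were injected at different times and killed together. RPF libraries held between 9742197 and 12739173 counts over coding sequences, and RNA libraries between 4645204 and 5908324 counts.

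Ribosomes do not load all mRNAs equally. Initiation, the step at which the small subunit is recruited to the mRNA and scans to a start codon, usually sets the rate, and it is affected by the 5′ UTR, by upstream AUGs, by the bases around the start codon and by regulatory elements such as the 5′ terminal oligopyrimidine (TOP) tract of ribosomal protein mRNAs. Hepatocytes secrete most of the plasma proteins and carry many mitochondria. A footprint count reports where ribosomes sit, and a ribosome that moves slowly counts as much as one that initiated often.

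TE was the ratio of RPF density over the counted coding sequence to RNA density over the transcript, both per base, on a log2 scale on which the median mRNA of each mouse is 0. An mRNA was called high or low where edgeR's test against a 2-fold threshold (glmTreat) gave a Benjamini-Hochberg adjusted p under 0.1. This called 848 mRNAs high, which is 13.5% of those tested, and 1217 low, which is 19.4%. Each of the called mRNAs kept its side of the median in all 6 mice. Because reads from near-identical genes cannot be assigned with certainty, 413 mRNAs that shared 10% or more of their counted sequence with another transcript were set aside. Among the 5873 left, 768 (13.1%) were high and 1047 (17.8%) were low. From the 5th to the 95th percentile their log2 TE ran from -2.15 to 1.66, a 13.99-fold range, and the middle 50% of mRNAs lay within 2.75-fold. The SD of an mRNA between mice had a median of 0.17 log2 units, well under this range. Near the RNA minimum, the 249 mRNAs whose lowest mouse lay between 10 and 11 RNA CPM had a median log2 TE of -0.09 (quartiles -0.82 and 0.72), and the 283 just outside, between 9 and 10 RNA CPM, had 0.00 (quartiles -0.75 and 0.70).

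**Figure D1:**
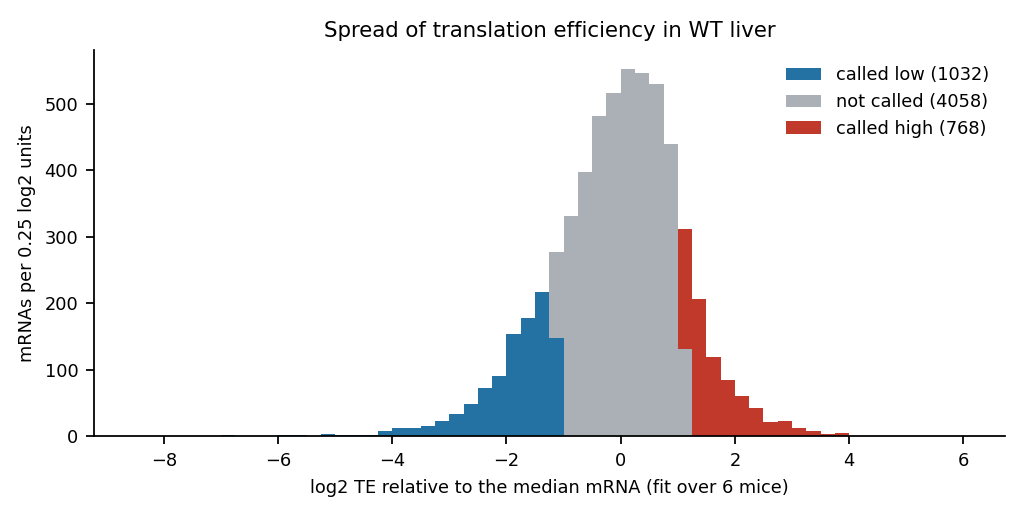
Number of mRNAs (y axis) by log2 TE relative to the median mRNA (x axis) for mRNAs with little shared sequence, stacked by call. Of the 5873, 15 with at most 3 RPF counts in every mouse are not drawn, all of them among the 1047 low calls. The other low calls and the 768 high calls form the tails, and the low tail reaches farther from 0.

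Length enters TE on both sides, through the coding sequence and through the transcript, and a wrong transcript length shifts the ratio without any change in ribosomes. TE was therefore also computed with no length scaling and with the annotated RNA length in place of the estimated effective length. With each of these 3 treatments, 341 mRNAs (5.81%) were high and 700 (11.9%) were low. The mRNAs at the ends of the scale are taken from these 341 and 700 and had more than 3 RPF counts in each mouse. The use of the 3 treatments for this was chosen after the values had been seen. The order is that of the main length scaling, and it differs under the other treatments.

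The bases around the start codons of the 5 highest and 5 lowest mRNAs chosen in this way are shown because scanning ribosomes favour a purine 3 bases before the AUG and a G just after it. They were read from the GENCODE vM39 annotation of GRCm39 along the mRNA, with 10 bases before the start codon, the start codon in capitals and 3 bases after it, and the interval is that of the gene. The first 5 lines are the highest mRNAs and the last 5 the lowest.
Pomp (chr5:147797262-147840681): tgtttcaaagATGaac
Ebpl (chr14:61569191-61597909): ctgtggagccATGggg
Polr2l (chr7:141051772-141055947): agacgccgccATGatc
Ppp1r7 (chr1:93270576-93301211): agcagccaatATGgcg
Atp5mc1 (chr11:95959678-95966757): agattgaaaaATGcag
Ahnak (chr19:8966311-9055220): tcctgcaaagATGgag
Lars2 (chr9:123195952-123291731): ctcctgaagaATGgca
Mapk6 (chr9:75276344-75317312): gggtttcaaaATGgca
Bmp7 (chr2:172709805-172782410): agccggcgcgATGcac
Trim37 (chr11:87017845-87141701): gccggaggcaATGgat

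All 10 of these windows have a purine 3 bases before the start codon, so this position does not separate the extremes. Over the whole sets it was a little more frequent among the high mRNAs, at 91.2% of 341 against 83.7% of the 700 low mRNAs and 87.9% of all 5873. A G directly after the start codon was present in 56.9% of the high and 46.1% of the low mRNAs. The windows shown went the other way, with this G in Ebpl and Ppp1r7 of the highest and in Ahnak, Lars2, Mapk6 and Trim37 of the lowest. The larger contrast lay upstream. An AUG within the 5′ UTR was found in 47.8% of the high mRNAs, in 61.3% of all and in 84.6% of the low ones, and the median 5′ UTR was 177 bases long in the high set and 337.5 bases in the low set. Of the 6286 transcripts, 1120 (17.8%) had the same length in this annotation as in the one used by the authors, so the UTRs and 5′ ends given here are those of the newer annotation.

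Counted over all 5873 mRNAs, the median log2 TE fell step by step with the number of upstream AUGs. It was 0.32 for the 2273 mRNAs without any, -0.03 with 1, -0.23 with 2 and -0.62 for the 603 mRNAs with 5 or more. Low calls made up 8.23% of the mRNAs without an upstream AUG and 35.2% of those with 5 or more. Without length scaling the medians of these end groups were 0.33 and -0.65. The median differed less by start context, from 0.10 for a purine 3 bases upstream together with the G to -0.29 for neither. Across 5 equal bins of 5′ UTR length the median fell from 0.28 in the shortest to -0.46 in the longest, and long 5′ UTRs also hold more AUGs. Within each of these bins the mRNAs with an AUG had a lower median than those without, 0.11 against 0.34 in the shortest and -0.52 against 0.11 in the longest, but their separate parts were not tested in a joint model. Among the 948 mRNAs with little shared sequence and the same transcript length in both annotations, the median was 0.41 without an upstream AUG (410 mRNAs) and -0.22 with 5 or more (71 mRNAs), and it did not fall at every step between.

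With the main length scaling, coding length showed the steepest trend, but its size depended on that scaling. With 5 equal bins, the median was 0.62 for the shortest coding sequences, up to 741 bases, and -0.78 for the longest, from 2655 bases. Without length scaling the same bins stood at -0.09 and -0.21. With 3′ UTR length the median also fell, but the fall was larger without scaling. The shortest and longest bin had 0.17 and -0.07 per length, and 0.69 and -0.75 without scaling. These are descriptions across mRNAs that share the same 12 libraries, and length is itself part of the TE value.

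**Figure D2:**
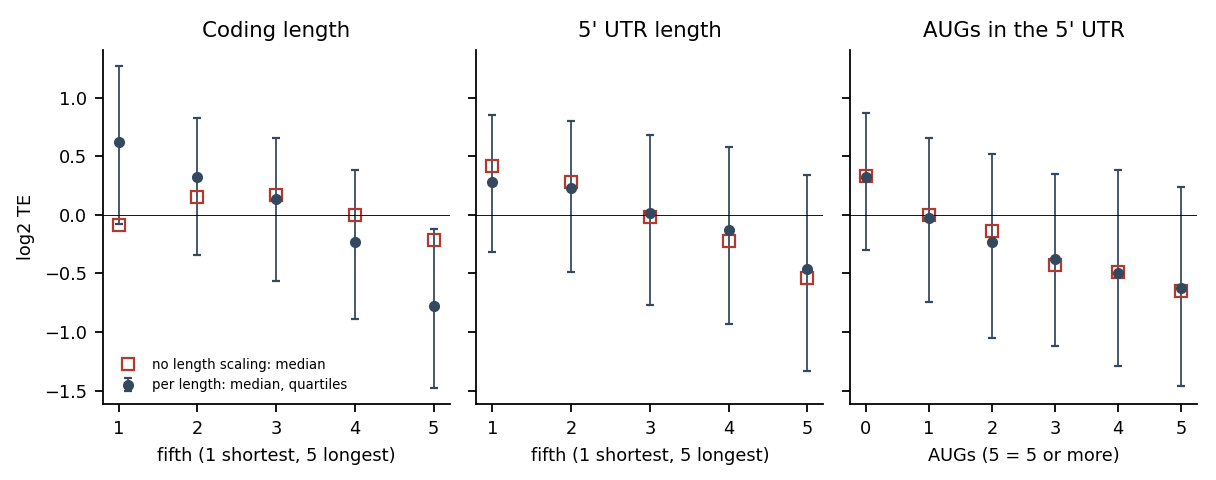
Median log2 TE with quartiles (filled points and bars) and the median without length scaling (open squares) over 5 equal bins of coding length and of 5′ UTR length, and by the number of AUGs in the 5′ UTR. The trend with upstream AUGs is alike under both scalings, from 0.32 to -0.62 per length, while that with coding length is mostly lost without the scaling.

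With the main length scaling the highest of these mRNAs was that of Pomp, the assembly chaperone of the proteasome. Its log2 TE was 4.89 in the lowest mouse, 5.04 at the median and 5.19 in the highest, 33.0-fold above the median mRNA (adjusted p = 8.94e-17). Its RNA was modest, at 73 to 110 counts a mouse, and it carried 1059 to 1590 footprints. It was also called high without length scaling, at 3.06, and with the annotated RNA length, at 2.88. In those orders it was not the highest, since Lrg1 had 4.12 without length scaling and Polr2l 4.60 with the annotated length.

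Ebpl, a relative of the sterol isomerase Ebp, had 4.36 in the lowest mouse, 4.49 at the median and 4.90 in the highest. Polr2l, a small subunit shared by the nuclear RNA polymerases, had 3.89, 4.65 and 4.69. Ppp1r7, a regulatory subunit of protein phosphatase 1, had 3.79, 4.12 and 4.31. All 6 mice were thus far above the median mRNA for each, but the size depended on length: without length scaling the fitted values were 1.42 for Ebpl, 1.89 for Polr2l and 1.84 for Ppp1r7. The 3′ UTRs taken for Ebpl and Ppp1r7 are 9422 and 8423 bases long.

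Some of the 15 highest encode mitochondrial proteins. Atp5mc1 encodes the c subunit that forms the rotor ring of ATP synthase, and its log2 TE was 3.56 in the lowest mouse, 3.79 at the median and 4.29 in the highest. Mrpl51, of the large mitochondrial ribosomal subunit, had 3.42, 3.61 and 4.05. Slirp, an RNA-binding protein that stabilises mitochondrial mRNAs, had a median of 3.42, Ndufb3 of complex I had 3.38 and Tomm6 of the outer membrane translocase had 3.26. Without length scaling Atp5mc1, Mrpl51, Slirp, Ndufb3 and Tomm6 had fitted values of 2.25, 1.297, 1.39, 3.01 and 2.41.

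The remaining 6 of the 15 encode proteins of various kinds. Dad1, a subunit of the oligosaccharyltransferase that attaches N-glycans, had a median log2 TE of 3.53, and Ctsl, the lysosomal protease cathepsin L, had 3.49. Ly6e, a membrane protein held by a lipid anchor, had 3.81. Lrg1, a leucine-rich glycoprotein secreted in the acute phase, had 3.02 in the lowest mouse, 3.43 at the median and 3.79 in the highest. Its abundance varied far more than its TE: from 3434 to 15846 RPF counts and from 126 to 446 RNA counts a mouse. The last were Pfdn2, a subunit of the prefoldin chaperone, with a median of 3.31, and Dap, a small regulator of autophagy, with 3.40.

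**Figure D3:**
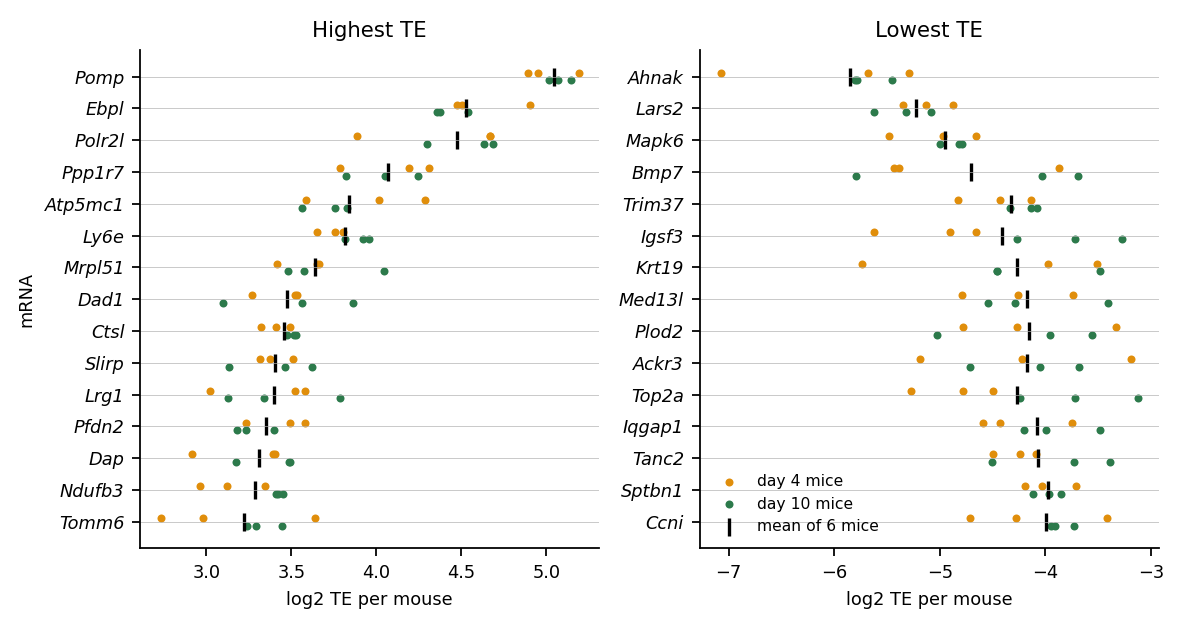
Log2 TE in each mouse (points, coloured by day) and the mean of the 6 mice (bars) for the 15 highest and 15 lowest mRNAs called with all 3 length treatments and with more than 3 RPF counts in each mouse. Day 4 and day 10 points intermingle for most of these mRNAs, and the lowest mRNAs spread more between mice.

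At the low end, among mRNAs with more than 3 RPF counts in each mouse, stood Ahnak, a giant scaffold protein under the plasma membrane with a coding sequence of 16971 bases. Its log2 TE was -7.08 in the lowest mouse, -5.73 at the median and -5.29 in the highest, 56.1-fold below the median mRNA (adjusted p = 4.8e-13). It was not a rare mRNA, with 2885 to 5177 RNA counts a mouse against 115 to 315 RPF counts. Lars2, the mitochondrial leucyl-tRNA synthetase, followed among them with -5.62, -5.22 and -4.87. Mapk6, which encodes the short-lived atypical kinase ERK3, had -5.48, -4.89 and -4.66, with 18 to 32 footprints on 411 to 491 RNA counts, and its 5′ UTR of 761 bases holds 13 AUGs.

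Among the remaining 12 of the 15 lowest were Trim37, an E3 ubiquitin ligase, with a median of -4.23, Ccni, a cyclin of little-known function, with -3.93, Sptbn1, a spectrin of the membrane skeleton, with a fitted -3.98, and Iqgap1, a scaffold of the actin cytoskeleton, with -4.10. Some others are known from cells other than hepatocytes or from dividing cells. Krt19, a keratin of bile duct cells, had -4.21, Top2a, the topoisomerase of cycling cells, had -4.37, and Bmp7, a growth factor of epithelia, had -4.71. Low TE was not a trait of such cells in the marker lists. Kupffer, endothelial and stellate cell markers had medians of 1.03, 0.51 and 0.51 with no low member, and the bile duct marker Spp1 was not called.

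A further 15 mRNAs with little shared sequence had at most 3 RPF counts in every mouse, so that only a limit can be given. Krt5, a keratin of basal cells in stratified epithelia, stood at 42.4 ± 10.2 RNA CPM (SD, n = 6), and its TE was at least 217-fold lower than that of the median mRNA. Krt17, another such keratin, stood at 33.5 ± 8.25 RNA CPM with no RPF count in any mouse, at least 184-fold lower. Grhl2 and Gata3, transcription factors of epithelia, were at least 86.0-fold and 65.2-fold lower, and Esrp1, an epithelial splicing factor, at least 65.3-fold. Not all of the 15 are epithelial genes, since 5 were odorant or vomeronasal receptor genes (Or7g23, Or4f14b, Or51k1, Vmn2r59 and Vmn1r81), and the others were Myo5c, Greb1, Tmem72, Rpl39l and Igip. These limits are set by a floor of 3 RPF counts in each library and cover counting only. Krt6a, Krt6b and Krt15, further keratins of stratified epithelia, also reached 10 RNA CPM in all 6 mice, but had no RPF transcript and were not tested. Neither the labels nor the study's methods name a source of such RNA in liver.

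The RNA of many of these mRNAs was not spread evenly over the mice. Krt17 had 25.7, 39.2 and 34.9 RNA CPM in day 4 mice 1, 2 and 3, and 21.3, 37.5 and 42.4 in day 10 mice 1, 2 and 3. Ahnak had 544, 890 and 823 RNA CPM at day 4 and 534, 847 and 848 at day 10. In both cases the mouse numbered 1 of each day was the lowest. The mean of these mice was 0.61 times that of the other 4 for Krt17 and 0.63 times for Ahnak, while Mapk6, Ccni and Lars2 had ratios of 0.87, 0.90 and 1.00.

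Counted over all 5873 mRNAs, 604 (10.3%) had lower RNA CPM in both mice numbered 1 than in each of the other 4. The share was 3.81% of the 341 high mRNAs, 25.3% of the 700 low mRNAs, 50.5% of the 105 mRNAs with a log2 TE under -3, and 8 of the 15 mRNAs at the RPF floor. When these 604 mRNAs are left aside, 807 of 5269 (15.3%) were low and 523 of the 700 remained. Of the 15 lowest mRNAs with more than 3 RPF counts in each mouse, 12 were among the 604, all but Lars2, Mapk6 and Ccni. If that many counts are asked of any mouse instead, 3 of these 15 remain among the 15 lowest, led by Celsr2, Trps1 and Frem2 with 8 counts or fewer a mouse, and 11 of those 15 were among the 604. Their part in the low TE values was not tested.

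Low mRNAs outside the 604 included very sparse ones, such as Rnf225 with 0 to 5 RPF counts a mouse and a median log2 TE of -6.81 and Parp6 with 0 to 9 and -5.11. The next 5 were picked after their values had been seen and do not stand for the rest. Mkks, a chaperonin-like protein of the primary cilium, had a log2 TE of -4.07 in the lowest mouse, -3.85 at the median and -3.35 in the highest, with 15 to 23 RPF counts on 118 to 146 RNA counts and 18 AUGs in a 5′ UTR of 1003 bases. Msl1, a subunit of a histone acetyltransferase complex, had -4.46, -3.91 and -3.51, and its 5′ UTR of 659 bases holds 5 AUGs. Mbd5, a methyl-CpG-binding domain protein, had -4.89, -3.89 and -2.87, and 26 AUGs in 1270 bases. Shorter leaders with few AUGs also occurred. Tcf20, a nuclear coregulator, had -3.85, -3.60 and -3.40 with 2 AUGs in 185 bases. Fbxw2, a substrate adaptor of a ubiquitin ligase, had -3.87, -3.58 and -3.50 with 1 in 264 bases. RNA of these 5 mRNAs in the mice numbered 1 was 0.83 to 1.05 times that in the other 4.

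Gene lists were then compared by the counts of their members called in each direction and by their median. Beside them stand 13.1% high, 17.8% low and a median of 0.02 for all mRNAs with little shared sequence. With all 3 length treatments, 5.81% of these mRNAs were high and 11.9% were low. Of 66 cytosolic ribosomal protein mRNAs, 36 were low and 1 was high, with a median log2 TE of -1.34 (range -3.55 to 1.86). Of the 36, 19 were low with all 3 length treatments. Together the ribosomal protein list took 0.737% ± 0.207 of RPFs and 1.597% ± 0.130 of RNA (SD, n = 6, all 78 tested members). Rps23, of the decoding site in the small subunit, was the lowest at -4.06 in the lowest mouse, -3.57 at the median and -3.06 in the highest. Rps12 had -4.78, -3.37 and -2.30, and the stalk protein Rplp0 had -3.49, -2.89 and -2.31. The single high member, Rps15a, had a median of 1.99 per length and a fitted value of -0.54 without length scaling, so its direction depended on the length scaling. For the list as a whole the median without length scaling was -0.78. Of the 66, 17 had the lowest RNA in both mice numbered 1, and the other 49 had a median of -1.28 with 25 low.

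The 16 other mRNAs known for a 5′ TOP tract were alike, with 9 low (5 with all 3 length treatments), 2 high and a median of -1.43. Tpt1, the translationally controlled tumour protein, had -3.02 in the lowest mouse, -2.35 at the median and -1.94 in the highest. Pabpc1, the poly(A)-binding protein, had -3.52, -2.35 and -1.05, and Eef1a1, which brings aminoacyl-tRNA to the ribosome, had -2.80, -1.67 and -1.16. Eif3f went the other way at a median of 2.12. Of 27 initiation factor mRNAs, 5 were high and 2 were low with a median of -0.04. Eif3e, Eif3f, Eif3h and Eif4b are counted in the list of other TOP mRNAs and not among the 27. The lowest of the 27 was Eif4g2, which supports initiation without cap binding, at a median of -2.26, and the highest Eif1ax, which promotes scanning, at 2.86, although that value was 0.12 without length scaling.

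A TOP tract is a C at the transcript start followed by a run of pyrimidines, and the annotated 5′ ends were searched on the mRNA strand for a C followed by 4 pyrimidines. It was present at 10 of 78 ribosomal protein transcripts (12.8%), at 0 of the 16 other TOP mRNAs and at 259 of all 6286 (4.12%), so the annotated ends of most of these transcripts do not start at the tract for which the genes are known. Of the 94 transcripts of both lists, 20 had the same length in both annotations. The ends of 4 ribosomal protein mRNAs called low are shown with that of Rps15a in the last line, the first 5 bases in capitals, from the same annotation.
Rpl30 (chr15:34440430-34443879): CCTTCctttctcgctccccg
Rps2 (chr17:24937080-24940904): CTCTTcttcttcttcgggag
Rpl26 (chr11:68792344-68797822): CTCTCccctttcgctccgag
Rpl31 (chr1:39406884-39413938): CTTCCtttcctacttgggcc
Rps15a (chr7:117703595-117715454): CTCCCgaaagggggtgtgtg

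Their fitted log2 TE values were -2.33 for Rpl30, -1.74 for Rps2, -2.29 for Rpl26, -2.32 for Rpl31 and 1.86 for Rps15a. Over all mRNAs with little shared sequence, the 244 with such an end had a median of -0.05 against 0.02 for the rest, so the 5 bases alone did not mark low mRNAs.

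**Figure D4:**
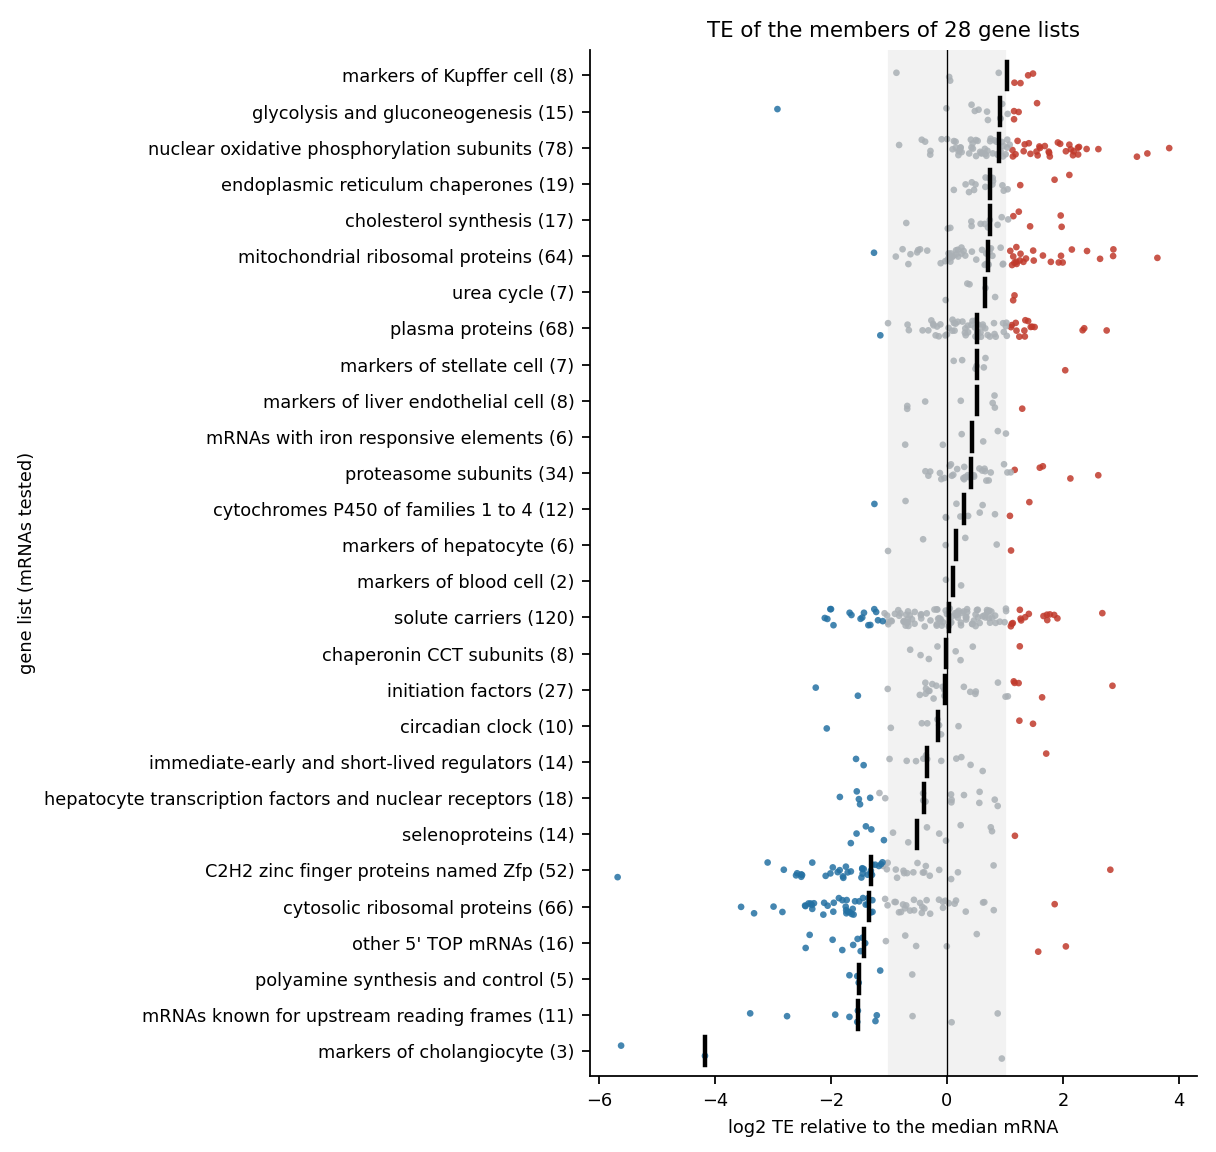
Log2 TE relative to the median mRNA (x axis) of each member (points) of the 28 gene lists, mRNAs with little shared sequence, with the list's median (bar) and the number of mRNAs in parentheses. Red points were called high, blue points low and grey points not called, and the grey band marks a 2-fold difference either way. Ribosomal protein, other TOP, Zfp and upstream reading frame lists lie left of 0, and oxidative phosphorylation and mitochondrial ribosomal lists to the right.

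Of the mitochondrial proteins made in the cytosol, the lists of oxidative phosphorylation subunits and mitochondrial ribosomal proteins had medians above the median mRNA. Of 78 nuclear-encoded subunits of oxidative phosphorylation, 31 were high and none was low, with a median of 0.90, and 22 of the 31 held with all 3 length treatments. They took 1.52% ± 0.0590 of RPFs and 0.879% ± 0.0840 of RNA (SD, n = 6). After Atp5mc1, the values of Ndufb2 of complex I were 3.29 in the lowest mouse, 3.46 at the median and 3.61 in the highest, but 1.08 without length scaling. Cox5b of cytochrome c oxidase had 1.96, 2.24 and 2.68, and the lowest subunit, Ndufa6, had a median of -0.83 and was not called. Of 64 mitochondrial ribosomal proteins, 24 were high and 1, Mrpl42, was low, with a median of 0.70. Only 5 of the 64 were high with all 3 length treatments, beside 5.81% of all mRNAs with little shared sequence. The oxidative phosphorylation and mitochondrial ribosomal lists had median coding lengths of 409.5 and 565.5 bases. In the shortest bin of coding length, up to 741 bases, 30.7% of mRNAs were high, with a median of 0.62. The part of coding length in these lists was not tested. The median of the mitochondrial ribosomal list was 0.65 without length scaling and 0.67 with the annotated RNA length. The medians of the cytosolic and mitochondrial ribosomal protein lists thus stood on opposite sides of the median mRNA, also without length scaling (-0.78 and 0.65). Proteasome subunits were closer to it, with 5 of 34 high (3 with all 3 treatments), none low and a median of 0.42.

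Plasma proteins are the main export of the liver. Of 68 mRNAs, 15 were high (11 with all 3 length treatments) and 1 was low, with a median of 0.52, and without length scaling the median was 1.15. The list took 29.4% ± 1.36 of all RPFs and 23.9% ± 1.20 of RNA (SD, n = 6, 84 tested members). Hrg, the histidine-rich glycoprotein of plasma, led with 2.46 in the lowest mouse, 2.75 at the median and 3.06 in the highest. Apoc3, an inhibitor of lipoprotein lipase, had 2.03, 2.37 and 2.52, and Serping1, the C1 inhibitor of complement, had 1.28, 1.57 and 1.65. Apob, the structural protein of very low density lipoproteins, was the low member at -1.34, -1.17 and -0.91 (adjusted p = 0.0241), and stood at -0.07 without length scaling.

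The 10 mRNAs with the most footprints together held 17.7% ± 0.922 of RPFs and 14.7% ± 0.725 of RNA (SD, n = 6), and most of them encode plasma proteins. Alb, serum albumin, had the most of both, 4.59% ± 0.399 of RPFs and 5.68% ± 0.638 of RNA. Its log2 TE was -1.16 in the lowest mouse, -1.05 at the median and -0.81 in the highest, below the median mRNA in each mouse, and it was not called (adjusted p = 0.524). Without length scaling Alb stood at 0.00. Trf, the iron carrier transferrin, held 1.98% ± 0.139 of RPFs and 1.00% ± 0.0741 of RNA with a median log2 TE of 0.42. Only Apob, low, and Mup22, high but with shared sequence, passed the test among the 10. Without length scaling Apob did not pass it, while Mup22 did at 1.72 and Trf, Pzp and Gc at 1.29, 1.52 and 1.15.

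Enzymes of liver metabolism were mostly at or above the median mRNA. In the urea cycle 2 of 7 were high with a median of 0.66, namely Ass1, which joins citrulline and aspartate, at a fitted 1.17, and Asl, which splits the product, at 1.14. Of 15 glycolysis and gluconeogenesis mRNAs, 4 were high, the highest being Pgam1, phosphoglycerate mutase, at 1.55. The low member was Pkm, the pyruvate kinase of non-hepatocyte and proliferating cells, at -2.92, beside the liver form Pklr at 1.16. The RNA of Pkm in the mice numbered 1 was 0.63 times that in the other 4. Of 17 cholesterol synthesis mRNAs, 5 were high, led by Pmvk (1.98) and Lss (1.96), with none low and a median of 0.74. Of 12 cytochromes P450 with little shared sequence, 2 were high and 1 was low, with a median of 0.30. The 120 solute carriers were spread around 0.04 with 15 high and 16 low. Chaperones of the endoplasmic reticulum had 3 of 19 high with a median of 0.75. They were Pdia6 at 1.26, high with all 3 length treatments, Manf at 1.86, and Serp1 at 2.11, which turned to -2.09 without length scaling.

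Several lists of mRNAs known for translational control were low. Of 11 mRNAs known for upstream reading frames, which divert scanning ribosomes from the main start codon, 8 were low (6 with all 3 length treatments) and none was high, with a median of -1.54 and of -1.55 without length scaling. Atf5, a stress-response transcription factor, had -4.07 in the lowest mouse, -3.33 at the median and -2.98 in the highest. Atf4, the main effector of the integrated stress response, had -3.27, -2.73 and -2.48. Ppp1r15b, which directs phosphatase to eIF2α, had -1.37, -1.25 and -1.12. Cebpb, which uses an upstream frame to choose between isoforms, was the highest of the list at a fitted 0.87 and was not called.

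Polyamine synthesis, whose enzymes respond to polyamine levels through their own translation, had 4 of 5 mRNAs low, 1 of them with all 3 length treatments, with a median of -1.52. They were Azin1 at a fitted -1.68, Odc1 at -1.55, Oaz1 at -1.52 and Oaz2 at -1.15, and Azin1 and Odc1 also belong to the list of upstream reading frames. Oaz1 and Oaz2, the antizymes, need a frameshift for their full protein. Of 14 selenoprotein mRNAs, which read a UGA codon as selenocysteine, 5 were low (3 with all 3 length treatments) and 1 was high, with a median of -0.51. Selenop, the selenium carrier of plasma, had -1.83, -1.67 and -1.50 on 4345 RNA CPM, and Dio1, the hepatic deiodinase of thyroid hormone, had -1.85, -1.31 and -1.17. None of the 6 iron responsive element mRNAs with little shared sequence was called, and their median was 0.44.

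Zinc finger proteins named Zfp, mostly transcription factors of the C2H2 class, were low as a list: 33 of 52 low (24 with all 3 length treatments), 1 high and a median of -1.31, with -1.40 without length scaling. Zfp462 was the lowest at -7.16 in the lowest mouse, -5.68 at the median and -4.77 in the highest. Its RNA in the mice numbered 1 was 0.59 times that in the others, and Zfp236, at a median of -3.11, had a ratio of 1.26. The high member, Zfp706, had a fitted 2.82 per length and -0.74 without length scaling. Hepatocyte transcription factors and nuclear receptors had 5 of 18 low and none high with a median of -0.39, among the low ones Nr2f2 (-1.85) and Onecut1 (-1.52). Of 10 clock mRNAs, 1 was low and 2 were high, with a median of -0.15. Clock itself was low at a fitted -2.07, with each length treatment. The output factor Hlf was high at 1.48 but stood at -0.17 without length scaling, and the repressor Bhlhe40 was high at 1.25 but stood at -0.65 without length scaling and at -1.18 with the annotated RNA length. Of 14 immediate-early and short-lived regulators, 2 were low and 1, the cell cycle inhibitor Cdkn1a, was high (0.77 without length scaling), with a median of -0.35. The 8 subunits of the chaperonin CCT had 1 high member and a median of -0.01.

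Markers of cell types gave a check of the tissue. The hepatocyte markers were abundant in both libraries, 6.58% ± 0.492 of RPFs and 7.02% ± 0.826 of RNA (SD, n = 6) for 6 genes, with a median log2 TE of 0.15. Of 8 Kupffer cell markers, 4 were high with a median of 1.03, among them Cd5l at 1.37 in the lowest mouse, 1.47 at the median and 1.62 in the highest, and Clec4f at a median of 1.43. The 8 endothelial and 7 stellate cell markers had 1 high member each and medians of 0.51. TE compares 2 libraries of the same lysate and does not report cell numbers, and in bulk liver fewer cells of a type and less RNA per cell cannot be told apart. Cholangiocyte markers were split. Krt7 and Krt19 were low at medians of -5.69 and -4.21, whereas Spp1 had 0.67, 0.92 and 1.26 and was not called. All 3 had less RNA in the mice numbered 1, with ratios of 0.52, 0.63 and 0.58, of which Krt7 and Krt19 were among the 604.

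Gene families with nearly identical members gave extreme values that their sums did not bear out. Of the 64 mRNAs with at most 3 RPF counts in every mouse, 49 had shared sequence. Mup19, of the major urinary proteins that carry pheromones, had 10200 ± 4904 RNA CPM (SD, n = 6) and at most 3 RPF counts a mouse, while its near copy Mup22 was among the 10 mRNAs with the most footprints. Summed over 22 Mup genes the log2 TE was -2.07 ± 0.458 (SD, n = 6), with 3.82% ± 0.920 of RPFs and 15.3% ± 6.23 of RNA. The β-globin pair Hbb-bs and Hbb-bt summed to 0.31 ± 0.230 although Hbb-bs alone stood at -8.25, and Bhmt with its copy Bhmt1b summed to 0.53 ± 0.0867 although Bhmt1b stood at -10.24. The 2 Gstp genes were the only family of the 10 summed that stayed more than 4-fold above the median mRNA, at 2.32 ± 0.347.

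The order of mRNAs was shared by the mice. Across the 5873 mRNAs, the Pearson correlation of log2 TE between 2 mice ran from 0.953 to 0.977 (Spearman 0.950 to 0.976), and that of the means of both days was 0.985. The lowest value within a day was 0.968. These correlations are across mRNAs, which are not independent replicates. Of the 100 highest mRNAs at day 4, 84 were among the 100 highest at day 10, and for the 100 lowest it was 89.

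Few mRNAs differed between the days. The ratio of RPFs to RNA was compared through the interaction of day and library type (quasi-likelihood F test of edgeR), with each mouse as a block. Of 6263 mRNAs, 131 (2.09%) were higher and 33 (0.527%) lower at day 10 than at day 4, at an adjusted p under 0.1. Of the 66 ribosomal protein mRNAs with little shared sequence, 55 were higher and none lower, and of the 16 other TOP mRNAs 12 were higher. With shared-sequence members included, both lists made up 78 of the 131 higher calls, or 59.5%. Their median changes were 0.70 and 0.65 log2 units, against -0.02 for all mRNAs.

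By mouse, the median log2 TE of the ribosomal proteins was -1.67, -1.95 and -1.44 in day 4 mice 1, 2 and 3, and -0.81, -0.86 and -1.15 in day 10 mice 1, 2 and 3. All day 4 mice lay below all day 10 mice, and each of the 66 mRNAs had a positive change. For the other TOP mRNAs the values were -1.65, -1.83 and -1.47 against -0.77, -0.92 and -1.28, again without overlap. The lists of oxidative phosphorylation, mitochondrial ribosomal proteins, proteasome, plasma proteins and Zfp proteins had median changes between -0.01 and 0.03 and at most 1 call each. Smaller differences without overlap between the days were seen in 5 further lists of the 28. With 3 mice a day some lists can separate without any change, and the list medians were not tested. Initiation factors had -0.04, -0.21 and -0.08 at day 4 and 0.10, 0.07 and 0.03 at day 10, and CCT subunits had -0.19, -0.24 and -0.07 against 0.12, 0.19 and 0.10. Solute carriers, hepatocyte transcription factors with nuclear receptors, and stellate cell markers were lower at day 10, with means of -0.03, -0.45 and 0.52 against 0.11, -0.22 and 0.64. Each of these 5 lists had at most 1 call. The ribosomal protein median was below 0 in all 6 mice and farther below it at day 4.

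**Figure D5:**
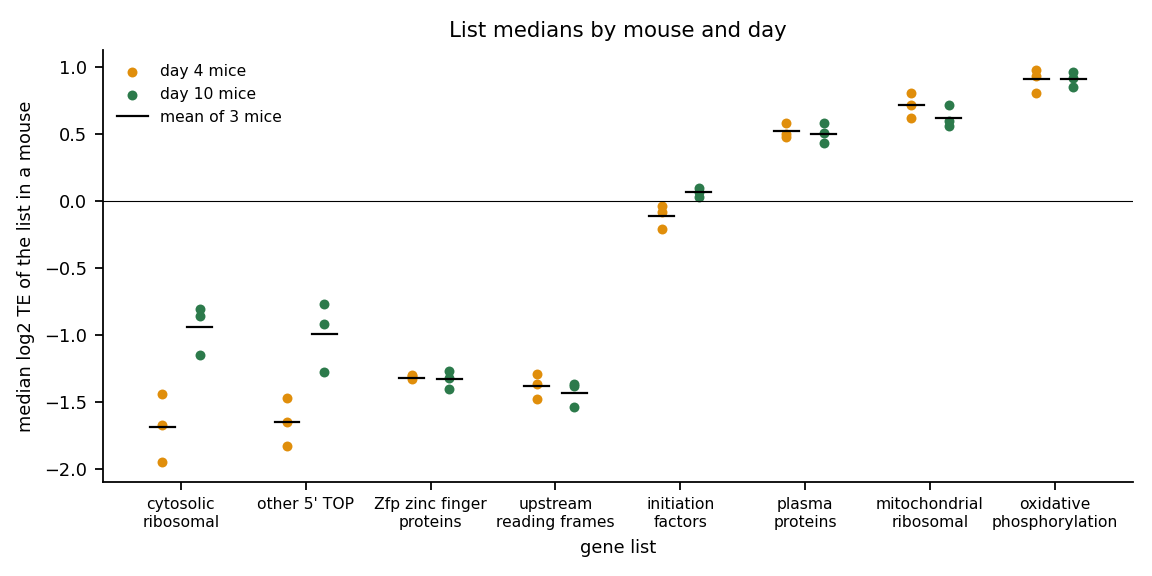
Median log2 TE of selected gene lists in each mouse (points, coloured by day) with the mean of the 3 mice of a day (bars). Ribosomal protein and other TOP lists separate by day, at about -1.69 against -0.94 and -1.65 against -0.99, while plasma protein and oxidative phosphorylation lists overlap.

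Among the called mRNAs with little shared sequence and no overlap between the days, Rps12 rose most, by 1.54 log2 units (adjusted p = 0.000637). Rps20 rose by 1.42 (adjusted p = 0.000237). Noct, a phosphatase with a strong daily rhythm, fell by 2.13 (adjusted p = 0.00487) on 11 to 139 RPF counts a mouse. The heat shock genes Hspa1a and Hspa1b fell by 2.42 and 2.13, and the histone genes H3c3, H2ac20 and H2bc6 rose by 1.64, 1.49 and 1.46, but these are near-identical copies whose reads may be split.

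The number of day calls moved with the model and with the mice included. Without the mouse block it was 60, with 58 higher and 40 of the 66 ribosomal protein mRNAs among them. It was 102 without day 10 mouse 2, with 45 of the ribosomal protein mRNAs, 118 without day 10 mouse 1, with 42 of them, and 9 without both mice numbered 1, which left 2 mice a day and 3 ribosomal protein mRNAs. The size of the change was kept: the median change of the 66 ribosomal protein mRNAs was 0.69 log2 units without both mice numbered 1, against 0.70 with all mice, and 0.58 to 0.81 without any single mouse, with all 66 positive each time. Time since injection and the date of injection cannot be told apart.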

How the data were processed

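Ribosome profiling and matched cytoplasmic RNA of 6 WT mice were used (12 of 48 libraries). Footprint reads were trimmed by the authors (Cutadapt 1.18), who removed rRNA and tRNA reads, aligned to the most abundant coding transcript of each gene (GENCODE vM27, GRCm39), removed duplicates by molecular identifier, and deposited raw counts of reads over coding sequences without the first 20 and last 10 codons. For RNA the deposited values are RSEM 1.3.3 expected counts per isoform (Bowtie2 2.3.5.1), of which at least 99.9% were whole in each library. They were summed per gene and rounded.

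Genes needed 10 RNA CPM in all 6 mice. Of 6329, 15 had no RPF transcript, 14 no coding length in GENCODE vM39 and 14 fewer than 60 counted coding bases. RPF densities used the vM39 coding length minus 90 bases (16200 of 16269 transcripts matched by identifier, 4050 with the same total length in both releases), and RNA densities the count-weighted RSEM effective length, with a prior of 0.5 counts. Both were offsets in edgeR 4.0.16 (limma 3.58.1, R 4.3.3) with mouse and library type as terms. glmTreat tested log2 TE beyond 1 in either direction and the quasi-likelihood F test the day interaction, after TMM scaling within each library type and without length. All tests were two-sided with Benjamini-Hochberg adjustment over all mRNAs tested and a threshold of 0.1. Both were tested on simulated data. The pairing of RPF and RNA libraries comes from the series' design text, which ties both to an individual mouse. Day 4 and day 10 mice are different animals and were not paired. p-values measure the spread between these 6 mice.

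Members and lists were chosen with earlier results of these data known. Named mRNAs were the 15 highest and 15 lowest called with more than 3 RPF counts in each mouse and called mRNAs at that floor. Also named were the ends of each list, any member of lists of up to 25 and the 10 mRNAs with most footprints. The last were the 5 largest day changes each way, among called mRNAs whose day 4 and day 10 values did not overlap. The limit on shared sequence (10% of 30-base stretches), the call with 3 length treatments the count of mRNAs lowest in the mice numbered 1, the upstream AUGs within bins of 5′ UTR length and the features over transcripts of unchanged length were added after seeing the data, and members of longer lists other than their ends were named after their values were seen. Intervals other than between mice are not given, and floors cover counting error only. The alternatives were other RNA and RPF minimums, length treatments, DESeq2 1.42.0, no fold threshold, no mouse block, and leaving out mice.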

Additional observations from a re-analysis of the deposited data

Results flagged for a closer look

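In 3 of 62 named mRNAs and 2 of 28 lists, 1 mouse stood apart from the other 5 by Dixon's criterion, which chance alone meets in about 1 in 20 groups. Ebpl had a log2 TE of 4.90 in day 4 mouse 1 against 4.36 to 4.54 in the others. Eif1, a start-codon selection factor with shared sequence, had 4.58 in day 10 mouse 1 against 4.10 to 4.27. Ahnak had -7.08 in day 4 mouse 2 against -5.80 to -5.29. The median of the cholesterol synthesis list was 1.01 in day 4 mouse 2 against 0.74 to 0.84, and that of the Kupffer cell markers 1.11 in day 4 mouse 3 against 0.92 to 0.99.

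Day 10 differed from day 4 by the test of the interaction for the mRNAs named here. They had the largest changes among called mRNAs whose day 4 and day 10 values did not overlap. The log2 changes were 1.64 for H3c3, 1.54 for Rps12, 1.49 for H2ac20, 1.46 for H2bc6 and 1.42 for Rps20. Lower at day 10 were Hspa1a (-2.42), Hspa1b (-2.13), Noct (-2.13), Mup8 (-2.01) and Mup17 (-0.84). Of these 10, Rps12, Rps20 and Noct have no shared sequence.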

How the results depend on the processing

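The calls moved with the mRNAs admitted and with the threshold. At 1 RNA CPM or more, 1502 mRNAs were high and 2114 low of 10864; with at least 1 RNA count in each mouse, 1822 and 2570 of 12747; at 30 RNA CPM, 421 and 670 of 3302, where fewer or more mRNAs entered the test. A test against no fold called 2829 high and 2823 low. Other settings, DESeq2 and leaving out a mouse included, stayed within 1.5 times. For the day comparison, the mouse block moved the count from 164 to 60, leaving out each mouse gave 102 to 204, and leaving out both mice numbered 1 gave 9, with fewer samples and a median change of 0.69 for ribosomal protein mRNAs. The cause of these moves was not tested. Without length scaling Tmem167, called high at 3.78, stood at -1, and 20 of 28 list medians moved by more than the SD between mice. Most named mRNAs (77 of 87) were alike there. Depth limits mRNAs at the floor to a bound, and the effective length of RNA rests on the isoform estimates.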
